A study of Sus scrofa with 8 samples.

Results

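The smooth muscle genes, DES, ACTA2, TAGLN, CNN1, MYH11, MYL9, CALD1 and VIM are known as markers of the contractile peritubular cells around the seminiferous tubules, and all 8 were looked up in microarray data of boar testes. A probe counted as one of these genes if its accession belonged to that gene in the RefSeq table of the pig, or if the gene column of the study's list of differing transcripts named it so. By this rule 2 of the 8 genes had a probe. DES had 3 probes (A_72_P177466, A_72_P209552 and A_72_P350098) and CNN1 had 1 (A_72_P035636), which makes 4 of the 43603 probes on the array. The genes ACTA2, TAGLN, MYH11, MYL9, CALD1 and VIM could not be tied to a probe by name and were not analysed here. Only 3064 probes had a gene name, so a gene without a named probe may still be measured on the array. All 4 probes were named through RefSeq and none through the list of differing transcripts.

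Peritubular myoid cells are flattened, contractile cells in the wall of the seminiferous tubule. Their contraction moves sperm and fluid along the lumen, and with the Sertoli cells they lay down the basement membrane. Smooth muscle shortens when actin and tropomyosin filaments slide along myosin, which is switched on by myosin light chain kinase in response to calcium. DES encodes desmin, the intermediate filament protein that ties the contractile bundles of muscle cells together. CNN1 encodes calponin, which binds actin and damps the activity of smooth muscle myosin. Both genes are also expressed by the smooth muscle of blood vessels, so in RNA of whole testis neither gene by itself marks the peritubular cells.

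Testis RNA of 8 F0 boars of the Large White breed was hybridized to 1 Agilent porcine array each, with the single dye Cy3. From month 1 to month 10 of age 4 boars (m_9597, m_9599, m_9499 and m_9527) were fed a standard diet with more folate, betaine, choline, methionine and vitamins B6 and B12 (suppl_diet), and 4 boars (m_9598, m_9600, m_9502 and m_9528) were fed the standard diet alone (control_diet). By the study's methods the 8 boars came from 3 litters, by 3 sows and 2 sires, and diets were allotted at random within each litter. The boars m_9597, m_9598, m_9599 and m_9600 were full brothers of 1 litter and shared slide 1. The other 4 boars shared slide 2, so the litter of brothers and the slide are confounded. Which boars on slide 2 were litter mates is not given, and litter was not modelled there. On each slide were 2 boars of either diet. The supplemented boars took places 1 and 3 of both slides and the control boars places 2 and 4, and place and diet therefore cannot be separated. The share of spots well above background was 76.3% to 79.6% in the supplemented boars and 77.3% to 86.5% in the control boars, and no spot was saturated. This share was highest in the control boars m_9598 (86.5%), m_9528 (82.7%) and m_9600 (82.6%). Whether it bears on the signals was not tested. Levels are given as quantile-normalized log2 signal, where 1 unit is a doubling. A difference between the diets is the mean of the supplemented boars minus the mean of the control boars. The tissue is whole testis, and fewer cells of a type cannot be told apart from less RNA per cell.

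The DES probe A_72_P177466 was bright in the testes of all boars, at 415 to 786 times the local background. Its log2 signal was 13.96 in boar m_9597, 13.96 in boar m_9599, 13.67 in boar m_9499 and 14.41 in boar m_9527 on the supplemented diet. On the control diet it was 13.18 in boar m_9598, 13.84 in boar m_9600, 14.18 in boar m_9502 and 13.37 in boar m_9528. The supplemented boar m_9527 was highest and the control boars m_9598 and m_9528 were lowest, and the diets overlapped because the control boars m_9600 and m_9502 lay among the supplemented boars. The mean was 14.00 ± 0.30 (SD, n = 4) in supplemented boars and 13.64 ± 0.46 (SD, n = 4) in control boars. The difference of 0.36 on the log2 scale (SE 0.25, 95% interval -0.20 to 0.91), or 1.28-fold, did not pass the test (limma, adjusted P = 0.840). The interval reaches from 0.871-fold to 1.88-fold, so these boars exclude neither a small decrease nor a rise close to a doubling.

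The second bright DES probe, A_72_P209552, lay 254 to 748 times above the local background. Its log2 signal was 13.69 in boar m_9597, 13.86 in boar m_9599, 13.32 in boar m_9499 and 14.22 in boar m_9527 on the supplemented diet. It was 12.94 in boar m_9598, 13.97 in boar m_9600, 14.01 in boar m_9502 and 12.44 in boar m_9528 on the control diet. The control boars fell into a high pair, m_9600 and m_9502, and a low pair, m_9598 and m_9528, with the supplemented boars m_9599, m_9597 and m_9499 between the pairs. The difference was 0.43 (SE 0.36, 95% interval -0.38 to 1.25), or 1.35-fold, with means of 13.77 ± 0.37 (SD, n = 4) and 13.34 ± 0.78 (SD, n = 4), and it did not pass the test (limma, adjusted P = 0.840). Without the control boar m_9528 it was 0.13.

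The third DES probe, A_72_P350098, was close to the detection limit, at 1.40 to 2.02 times the local background. Its log2 signal was 5.45 in boar m_9597, 5.63 in boar m_9599, 5.35 in boar m_9499 and 5.08 in boar m_9527 on the supplemented diet, and 5.61 in boar m_9598, 5.80 in boar m_9600, 5.18 in boar m_9502 and 5.32 in boar m_9528 on the control diet. The spot was well above background in 2 supplemented boars (m_9597 and m_9599) and in 3 control boars (m_9598, m_9600 and m_9528). The diet difference was -0.10 (SE 0.19; limma, adjusted P = 0.893). Signals this close to the background, which was not subtracted, understate changes of the transcript. The diet test was made for each DES probe by itself.

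The CNN1 probe A_72_P035636 was 80.8 to 150 times above the local background. Its log2 signal was 11.26 in boar m_9597, 11.39 in boar m_9599, 11.11 in boar m_9499 and 11.74 in boar m_9527 on the supplemented diet, and 10.96 in boar m_9598, 11.84 in boar m_9600, 11.04 in boar m_9502 and 10.84 in boar m_9528 on the control diet. Every supplemented boar lay above the control boars m_9598, m_9502 and m_9528, but the control boar m_9600 had the highest signal of all. This order did not hold before normalization. The CNN1 intensity was then 2833.5 in m_9598 and 2141.5 in m_9528, above the 2060.5 of the supplemented boar m_9597. At both bright DES probes m_9598 and m_9528 were lowest before normalization too. Means were 11.38 ± 0.27 (SD, n = 4) and 11.17 ± 0.45 (SD, n = 4). The difference of 0.21 (SE 0.24, 95% interval -0.33 to 0.75), or 1.15-fold, did not pass the test (limma, adjusted P = 0.848). Without boar m_9600 it was 0.43, with an unadjusted P-value under 0.05, as had 3.28% of all present probes in that setting. It was 0.09 without m_9527 and 0.10 without m_9528.

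**Figure D1:**
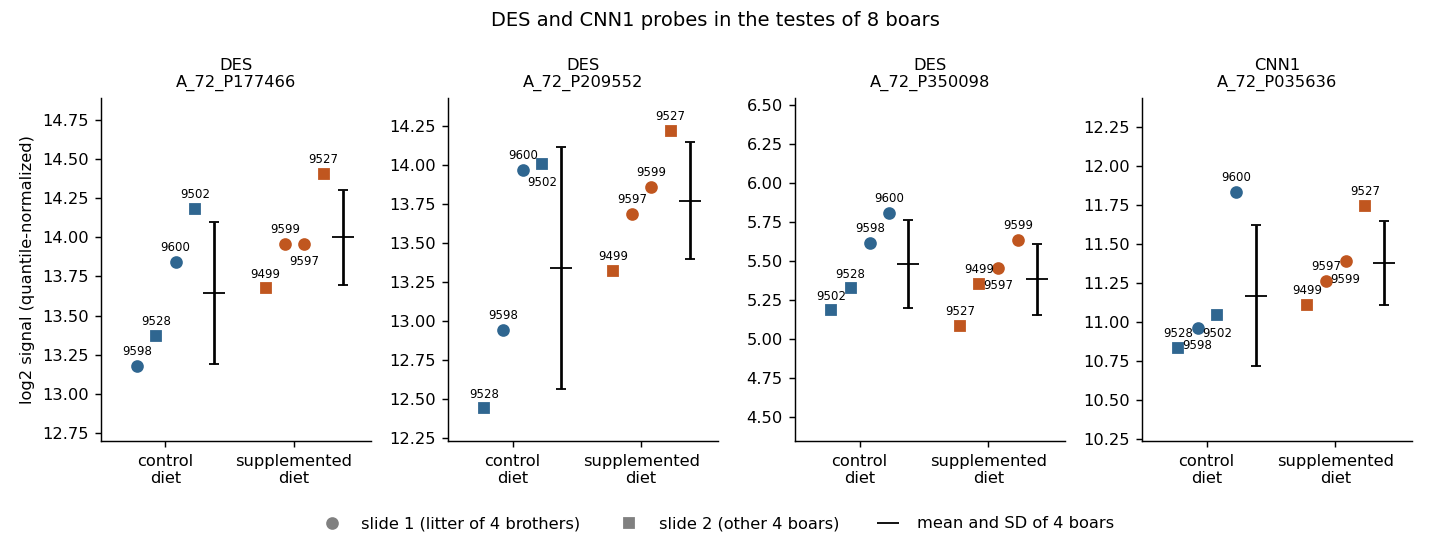
Quantile-normalized log2 signal (vertical axis) of the DES and CNN1 probes in each of 8 boars by diet, with circles for slide 1, squares for slide 2 and bars for the mean and SD of 4 boars. In the bright DES probes A_72_P177466 and A_72_P209552 and in CNN1 the control boars m_9598 and m_9528 sit below all supplemented boars, while the control boar m_9600 lies among the supplemented boars for DES and above them for CNN1. The dim DES probe A_72_P350098 lies between 5.08 and 5.80.

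None of the 4 probes had an unadjusted P-value under 0.05 between the diets, where 1.86% of the 36982 present probes had one. After Benjamini-Hochberg adjustment 0% of all present probes passed with limma, while 689 had an unadjusted P-value under 0.05. The diets overlapped at all 4 probes, and at 1.13% of the present probes they did not. An exact two-sided permutation test over the boars gave P = 0.229 for A_72_P177466, 0.371 for A_72_P209552, 0.629 for A_72_P350098 and 0.457 for CNN1. It used all 70 splits of the boars into 4 and 4, for which 0.0286 is the smallest possible P-value. These splits do not keep the allotment of the diets within litter. At the bright DES probe A_72_P177466 the difference was 0.54 with an unadjusted P-value under 0.05 both without the control boar m_9502 and with array weights in limma, but in these settings 16.6% and 15.8% of all present probes had such a P-value. Without m_9598 it was 0.20 and without m_9527 it was 0.22, neither with a P-value under 0.05. No setting brought a DES or CNN1 probe to an adjusted P-value under 0.05.

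**Figure D2:**
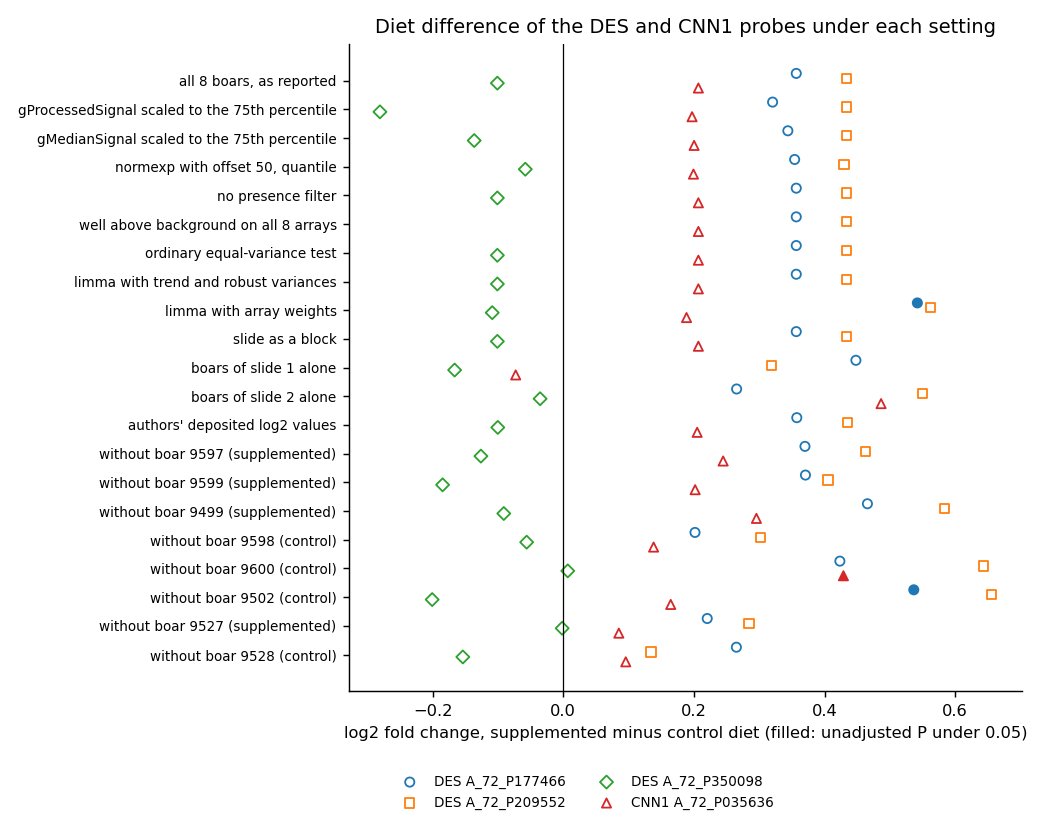
Log2 fold change between the diets (horizontal axis, supplemented minus control) of the 3 DES probes and the CNN1 probe under each way of processing or with each boar left out, where filled symbols have an unadjusted P-value under 0.05. A_72_P177466 stays between 0.20 and 0.54 and A_72_P209552 between 0.13 and 0.66, CNN1 reaches -0.07 with the boars of slide 1 alone, and the dim probe A_72_P350098 lies between -0.28 and 0.01.

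Each slide held both diets, so the diet difference was also taken within each slide. For A_72_P177466 it was 0.45 among the brothers on slide 1 and 0.27 on slide 2, and for A_72_P209552 it was 0.32 and 0.55. The bright DES probes were therefore higher on the supplemented diet on both slides. The CNN1 difference was -0.07 on slide 1 and 0.49 on slide 2, so its direction was not the same on both slides. The dim DES probe gave -0.17 and -0.04. The tests of the difference between the slides gave unadjusted limma P-values of 0.746, 0.786, 0.285 and 0.669 in this order, while 738 of the 36982 present probes had one under 0.05.

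The slides themselves were compared with diet in the fit, as slide 1 with the brothers minus slide 2. The difference was -0.17 for A_72_P177466, 0.12 for A_72_P209552 and 0.18 for CNN1. The dim DES probe was 0.39 higher on slide 1, where all 4 boars had a higher normalized signal than any boar on slide 2. Its unadjusted P-value was under 0.05 but the adjusted one was not (limma, adjusted P = 0.590). Before normalization the slides overlapped, with an intensity of 53 in m_9528 on slide 2 and 40 in m_9597 on slide 1. The local background of this spot, not subtracted, was 26 to 32.5 on slide 1 and 18 to 26.5 on slide 2. Its part in the slide difference was not tested. Of all present probes 8.11% had an unadjusted P-value under 0.05 between the slides, 6.18% did not overlap and 0% passed after adjustment. On slide 1 this spot was well above background in all 4 boars and on slide 2 only in boar m_9528, and the count of DES and CNN1 probes with a P-value under 0.05 was 0 instead of 1 once probes had to be well above background on all arrays, which left this probe out.

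Over the 8 boars A_72_P209552 spanned 3.44-fold, A_72_P177466 2.35-fold, CNN1 2.0-fold and A_72_P350098 1.65-fold. The SD over the boars was larger than that of 91.1% of the present probes for A_72_P209552, of 71.6% for A_72_P177466, of 64.1% for CNN1 and of 36.5% for A_72_P350098.

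Both bright DES probes ranked the boars alike. Set against its own mean over the 8 boars, the log2 signal of A_72_P177466 was highest in boar m_9527 (0.59) and lowest in boar m_9598 (-0.64), and that of A_72_P209552 was highest in boar m_9527 (0.67) and lowest in boar m_9528 (-1.12). Boar m_9528 was the one in which they differed most, since A_72_P177466 was 0.45 below its mean there. The correlation over the 8 boars was r = 0.90 (rho = 0.88, exact permutation P = 0.00198 for r and 0.00724 for rho, and 0.0119 and 0.0435 after adjustment over the 6 pairs of probes). Without the 2 boars farthest from the median of A_72_P177466 it was 0.85, and it was 0.93 on slide 1 and 0.98 on slide 2. Probes of one gene share the transcript and the array, so a common course is no relation between genes. For this and the other pairs of probes the permutations exchanged all boars freely across diet, slide and litter.

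CNN1 followed DES less closely. With A_72_P209552 its correlation was r = 0.77 (rho = 0.71, exact permutation P = 0.0268 for r and 0.0576 for rho, and 0.0803 and 0.173 after adjustment over 6 pairs). It was 0.59 without the 2 boars farthest from the median of the DES probe of the pair, 0.87 on slide 1 and 0.76 on slide 2. With A_72_P177466 it was r = 0.62 (rho = 0.55, exact permutation P = 0.10 for r and 0.171 for rho, and 0.200 and 0.342 after adjustment) with 0.25 left without the 2 farthest boars, 0.63 on slide 1 and 0.80 on slide 2. The genes parted in the control boar m_9502, where CNN1 was 0.23 below its mean and the bright DES probes were 0.36 and 0.45 above theirs, and in the control boar m_9600, where CNN1 was 0.56 above its mean and A_72_P177466 only 0.02. In the control boar m_9528 CNN1 was 0.44 below its mean, as A_72_P177466 was by 0.45, while A_72_P209552 was 1.12 below. The dim DES probe did not follow its bright counterparts, with r = -0.45 for A_72_P177466 (rho = -0.45) and r = -0.10 for A_72_P209552 (rho = -0.24), and gave r = 0.21 with CNN1 (rho = 0.31). The exact permutation P-values of these 3 r were 0.260, 0.820 and 0.603, or 0.390, 0.820 and 0.723 after adjustment, and those of rho were 0.267, 0.582 and 0.462, or 0.401, 0.582 and 0.554. Without the 2 boars farthest from the median of the bright DES probe, or of the dim one in the pair with CNN1, these r were -0.65, -0.20 and 0.45. They were -0.07, 0.30 and 0.68 on slide 1, where the probe was above background, and -0.93, -0.83 and -0.79 on slide 2.

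A profile of both genes was made by averaging all 3 centred DES probes, the dim one included, and then DES with CNN1. It was 0.42 in the control boar m_9600, 0.39 in the supplemented boar m_9527, 0.17 in m_9599, 0.04 in m_9597, -0.02 in the control boar m_9502, -0.16 in m_9499, -0.33 in the control boar m_9598 and -0.50 in the control boar m_9528. The diets were mixed in this order, with control boars at both ends, at the upper end only with the dim DES probe included. Of 2914 named probes of other genes the 5 most like this profile over the 8 boars were S100A6 (r = 0.98), a calcium-binding protein, TPM2 (r = 0.98), the beta chain of muscle tropomyosin, OAS2 (r = 0.97), an interferon-induced enzyme, TMSB10 (r = 0.97), which binds actin monomers, and CYP2A19 (r = 0.96), a cytochrome P450. Among the most opposite were ASF1B (r = -0.95), a histone chaperone, and PFKM (r = -0.95), the muscle form of phosphofructokinase. With the dim DES probe left out of the profile the supplemented boar m_9527 was highest (0.55), followed by the control boar m_9600 (0.39). The control boars m_9598 (-0.47) and m_9528 (-0.61) stayed lowest. The correlations were then 0.95 for S100A6, 0.99 for TPM2, 0.95 for OAS2, 0.97 for TMSB10, 0.97 for CYP2A19, -0.96 for ASF1B and -0.95 for PFKM. These likenesses are descriptions over 8 arrays, picked as the extremes of all named probes, and all points share the array and its normalization. A correlation above 0.7 was reached by 9.44% of the named probes and by 12.1% of the 58 present probes of the contractile system, and the median correlation was -0.15 and 0.22, respectively.

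**Figure D3:**
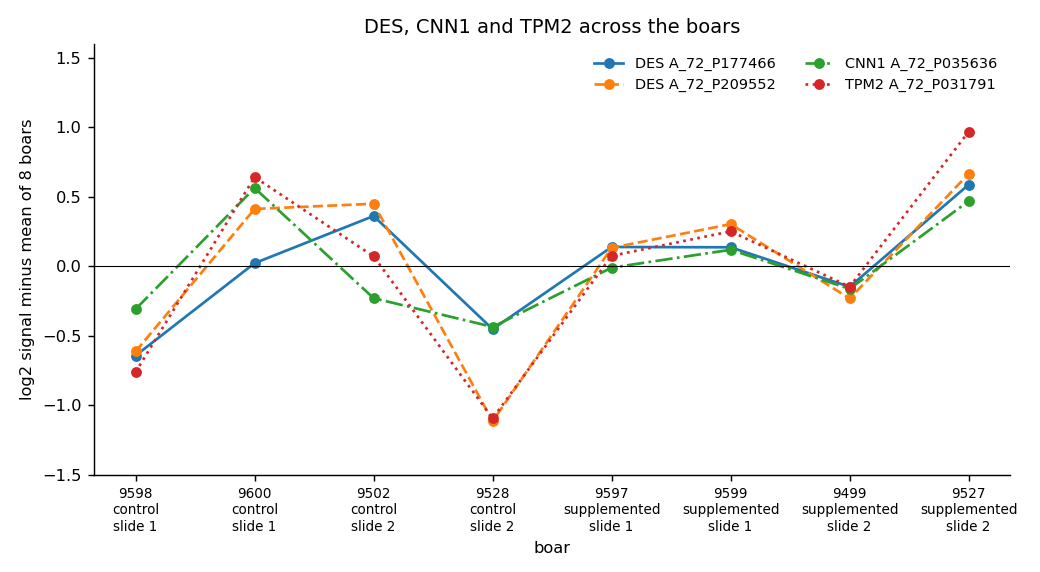
Log2 signal minus its mean over the 8 boars (vertical axis) for the bright DES probes, CNN1 and the tropomyosin probe TPM2 in each boar, ordered by diet and slide. The control boars m_9598 and m_9528 lie below 0 and the supplemented boar m_9527 above 0 for all 4 probes, and in the control boar m_9502 CNN1 lies at -0.23 while A_72_P209552 lies at 0.45.

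The other genes of the contractile system were taken from lists of 89 genes, of which 36 had a probe, and all of their 58 probes were present. At an unadjusted P-value under 0.05 1 probe was higher and 2 were lower on the supplemented diet, where 1.86% of all present probes had such a P-value in either direction, and after adjustment none passed with limma. The median difference over the 58 probes was 0.04, against -0.0028 over all present probes, and the median size of a difference was 0.16 against 0.17. The 3 probes with a P-value under 0.05 are named only by the study's list of differing transcripts, which was chosen on these same boars, so they are not independent evidence of a difference. Of the 54 probes named through RefSeq 0 had an unadjusted P-value under 0.05.

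Thin filament genes encode actin, tropomyosins and their partners, and 5 of 16 had a probe. These were TPM1, TPM2, TPM3, TPM4 and CFL1, so no actin gene was covered. Of 12 probes 9 were higher and 3 were lower on the supplemented diet without passing the test, with differences between -0.12 and 0.57 and a median of 0.14. The smallest P-value belonged to the tropomyosin probe TPM1 A_72_P179531, with a difference of 0.51 (SE 0.27; limma, adjusted P = 0.840). The other TPM1 probes differed by 0.42, 0.16, 0.07 and -0.12, also without passing the test. TPM2, which followed the DES and CNN1 profile, differed by 0.57 (SE 0.39; limma, adjusted P = 0.840), and spanned 4.18-fold over the boars.

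The myosin list had a probe for 2 of 6 genes, and all 4 probes were lower on the supplemented diet, with a median of -0.26. MYLK A_72_P208932, a probe of the myosin light chain kinase, differed by -0.46 (SE 0.33; limma, adjusted P = 0.840). The brightest MYLK probe, A_72_P364288, differed by only -0.015 and the dimmest, A_72_P384328, by -0.48, also without passing the test. For the genes that control contraction, such as phosphatases and the guanylate cyclase, 4 of 11 probes were higher and 7 lower, with a median of -0.30. The cyclase subunit GUCY1B3 A_72_P088626 differed by -0.32 (SE 0.20; limma, adjusted P = 0.840). The subunit GUCY1A3 A_72_P303069 differed the opposite way by 0.13 (SE 0.20; limma, adjusted P = 0.877). The medians of these lists had the opposite sign to the differences of CNN1 and the bright DES probes, and none of their probes passed the test.

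Of 9 probes of contraction receptors and their ligands, which include the endothelin and oxytocin receptors, 7 were higher and 2 lower, with a median of 0.07. The probe EDNRB A_72_P146416, for an endothelin receptor, was not well above background in any supplemented boar and was so in 3 control boars (control mean 5.48, supplemented mean 5.27; limma, adjusted P = 0.840). With the supplemented signals raised to the lowest signal called well above background, the mean was 1.14-fold lower on the supplemented diet. This is a value of the means alone, without sampling error. The fitted difference had a 95% interval that includes 0, and the other EDNRB probe, A_72_P117896, well above background in all boars, differed by 0.07 (SE 0.17; limma, adjusted P = 0.919). Of 6 anchorage probes 3 were higher and 3 lower. Both probes of the integrin subunit ITGB1 went opposite ways, by -0.69 for A_72_P223772 (SE 0.46) and 0.38 for A_72_P195557 (SE 0.29), without passing the test (limma, adjusted P = 0.840 for both).

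Among 16 probes of the factors that control smooth muscle transcription 9 were higher and 7 lower, with a median of 0.03. NR2F2 encodes the nuclear receptor COUP-TFII of mesenchymal and Leydig lineage cells. Its probe A_72_P120271 lay at 10.65, 10.66, 10.29 and 10.70 in the supplemented boars m_9597, m_9599, m_9499 and m_9527 and at 11.03, 11.28, 11.24 and 11.50 in the control boars m_9598, m_9600, m_9502 and m_9528. The diets did not overlap, and the difference was -0.69 (SE 0.16; limma, adjusted P = 0.840). The second NR2F2 probe, A_72_P255037, differed by -0.60 (SE 0.16; limma, adjusted P = 0.840), and TEAD1 A_72_P177401, a probe of a partner of the YAP coactivator, by 0.39 (SE 0.15; limma, adjusted P = 0.840), both without overlap. These are the 3 probes chosen on the same boars. The other TEAD1 probe, A_72_P288324, named through RefSeq, differed the opposite way by -0.24 (SE 0.18; limma, adjusted P = 0.840).

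**Figure D4:**
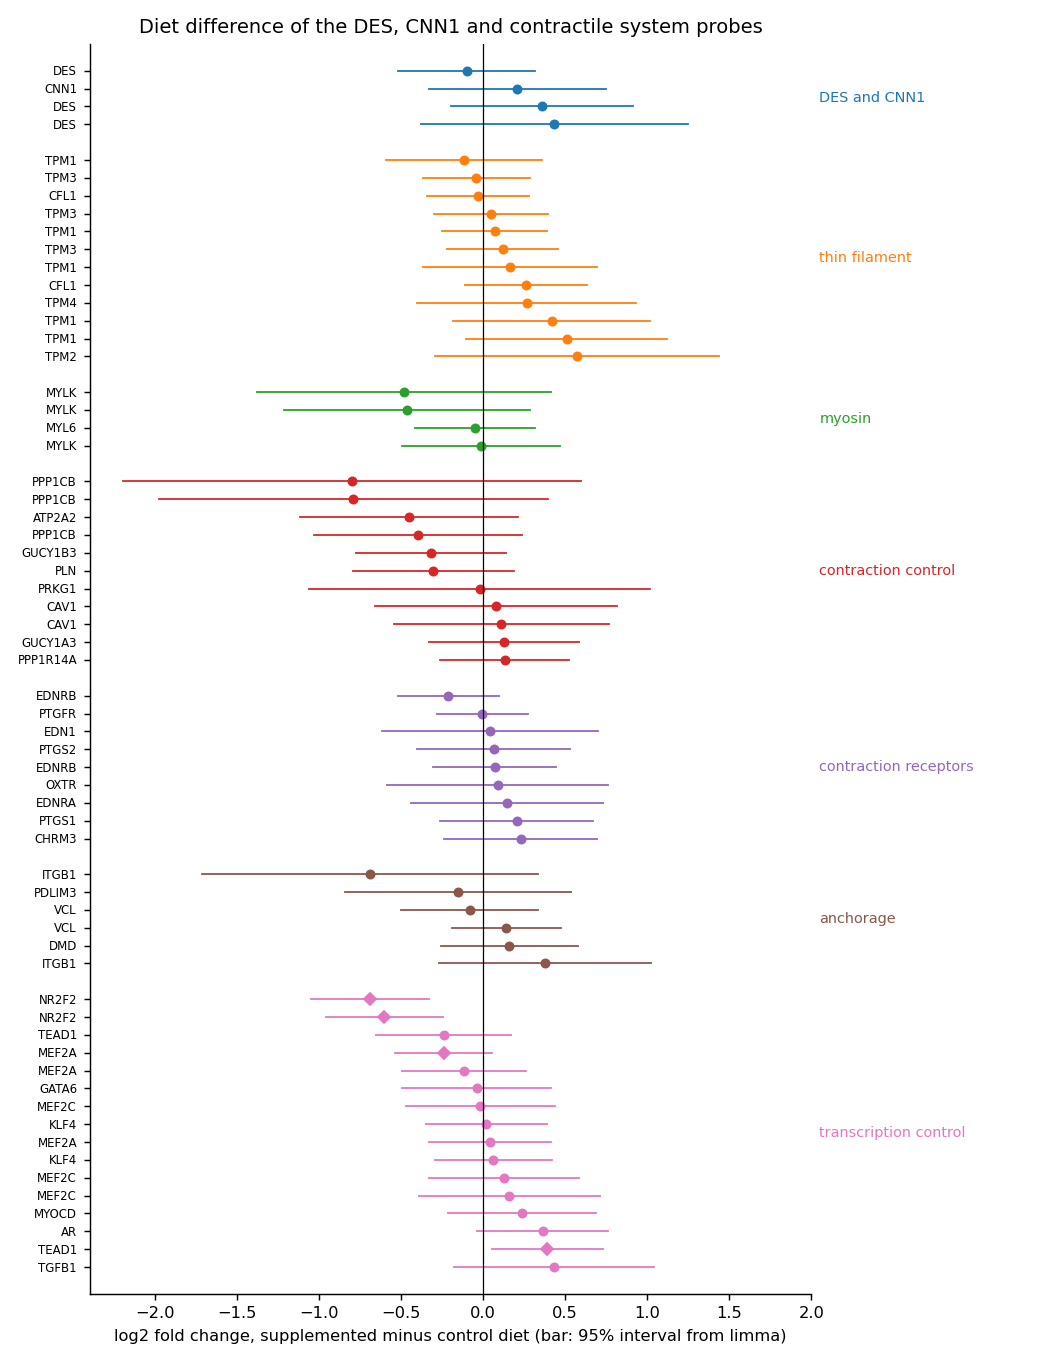
Log2 fold change between the diets (horizontal axis, supplemented minus control) with its 95% interval from limma for the DES and CNN1 probes and for 58 probes of 6 contractile lists, with diamonds for probes that only the list of differing transcripts names. The intervals of DES and CNN1 all include 0, and of the 58 others 3 exclude it, the NR2F2 probes on the left and a TEAD1 probe on the right.

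Other cells also hold these transcripts or vary with them, and their marker lists were measured beside DES and CNN1. Skeletal muscle shares DES. Its markers (13 probes of 8 genes) had a median difference of -0.01, and their list median, relative to the mean of the boars, ranged from -0.09 to 0.01 on the supplemented and from -0.04 to 0.07 on the control diet. The MYH1 probes A_72_P226296 and A_72_P420384 were not well above background in any supplemented boar. The only pericyte marker with a probe was RGS5, with differences of -0.25 and -0.46 at its 2 probes, the latter with an unadjusted P-value under 0.05 but chosen on these boars. Its list median ranged from -0.25 to -0.05 on the supplemented and from -0.28 to 0.77 on the control diet. Endothelium (5 present probes of 3 genes) had a median difference of -0.01, with ranges from -0.07 to 0.01 and from -0.28 to 0.32. Its single probes disagreed, with 0.72 at PECAM1 A_72_P218027 and 0.53 at ENG. The other PECAM1 probe differed by -0.01 and the CDH5 probes by -0.15 and -0.09, and none of these passed the test.

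In the macrophage list all 6 present probes of 3 genes had a correlation with the DES and CNN1 profile above 0, from 0.50 upward, and 1 AIF1 probe reached r = 0.89. Of all named probes 42.9% had a correlation above 0. In single boars the list and DES went apart, as in m_9502, where the macrophage list was at -0.45 and the bright DES probes were above their means. Endothelial probes had correlations from -0.10 to 0.88, above 0 at 4 of 5, and skeletal muscle probes from -0.86 to 0.90, above 0 at 5 of 13. All 6 macrophage probes were higher on the supplemented diet without passing the test, with a median of 0.34, and the macrophage list ranged from -0.04 to 0.46 on the supplemented and from -0.45 to 0.67 on the control diet. Leydig cell markers were lower at 11 of 11 probes of 6 genes, with a median of -0.35 and ranges from -0.92 to 1.12 and from -0.16 to 0.41. None of these probes passed the test, CYP17A1 and CYP11A1 had several probes each, and INSL3 differed by only -0.026. Over all present probes 18669 of 36982 were lower. Sertoli cell markers had a median of 0.06 over 9 probes of 6 genes, with ranges from -0.16 to 0.22 and from -0.09 to 0.09, and germ cell markers one of -0.02 over 6 probes of 6 genes, with ranges from -0.21 to 0.06 and from -0.06 to 0.20. The fibroblast list, with 3 probes of 1 gene, had a median of -0.15 and ranges from -0.43 to 0.23 and from -0.63 to 0.42. Markers of duct epithelium, with 5 probes of 2 genes, had a median of -0.95 and ranges from -1.84 to 0.86 and from -0.76 to 1.44. This median is that of an EPCAM probe. The EPCAM probes differed by -0.95, -1.15 and -1.19 and the CDH1 probes by -0.18 and -0.15, and none passed the test. CDH1 A_72_P164631 was not well above background in any supplemented boar and was so in 2 control boars. No red blood cell marker had a named probe. The part of these cells in the DES and CNN1 differences was not tested.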

How the data were processed

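The authors deposited the scanner output of each array, with the intensity of every spot from Feature Extraction (version 10.5.1.1 per the file headers), and a table of log2 values made by quantile normalization. For 35258 probes this deposited table correlated with the values computed here at r = 1 on each array, with a median difference of 0.03.

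The gMedianSignal of 43803 spots, control spots left out, was taken to log2 with its background and quantile-normalized here, and repeated spots of a probe were averaged. A probe was present on an array with a signal above 25 and the flag gIsWellAboveBG, and presence on 50% or more of the arrays in either diet was required, which left 36982 probes (84.8%). Differences between diets were tested by limma 3.58.1 (two-sided, moderated variances) in R 4.3.3, with Benjamini-Hochberg adjustment over all kept probes. The slides were compared with diet in the fit. Nothing in the labels says that replicate numbers pair boars. The code was tested on simulated data. Plots were made with matplotlib (3.10.9) under Python (3.11.15). Precision is limited by the number of arrays.

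Of 3239 RefSeq accessions 2628 matched the RefSeq gene table (assembly Sscrofa11.1, used for names only). The fold changes and P-values in the study's list of differing transcripts were not used. The genes and lists were chosen with earlier results of these data known. Named were all present DES and CNN1 probes, contractile probes with P under 0.05 or the smallest P-value of their list, and the 5 named probes most like and 3 most unlike the profile, of which 1 is not reported here. TPM2 is named by the last rule. The second ITGB1, TEAD1 and EDNRB probes were added after their values were seen, because the probes of these genes disagree. The other TPM1 and MYLK probes, GUCY1A3, INSL3 and the single endothelial and duct epithelium probes were added likewise, because they disagree in sign or size. The lists covered thin filament, myosin, contraction control, contraction receptors, anchorage and transcription control, and markers of pericytes, fibroblasts, skeletal muscle, Leydig cells, Sertoli cells, germ cells, endothelium, macrophages, duct epithelium and red blood cells. Alternatives were gProcessedSignal or gMedianSignal scaled to the 75th percentile, normexp with an offset of 50, no presence filter or one over all arrays, the ordinary equal-variance test, trend and robust variances, array weights, slide as a block, each slide alone, the table of deposited log2 values and leaving out single boars.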

Additional observations from a re-analysis of the deposited data

Results flagged for a closer look

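In a group of 4 boars a value was singled out when its gap to the nearest other boar took up more of the range of the group than the 95% critical value of Dixon's test allows. By chance about 3.1 of 62 groups would hold such a value, and 4 did. The TPM1 probe A_72_P179531 was at 10.87 in the supplemented boar m_9527, the boar with the highest DES signal, and between 10.01 and 10.10 in the other supplemented boars. The NR2F2 probe A_72_P120271 was at 10.29 in the supplemented boar m_9499 and between 10.65 and 10.70 in the others. The median of the thin filament list, relative to the mean of the boars, was 0.14 in the control boar m_9600 and between -0.17 and -0.13 in the other control boars. The median of the macrophage list was 0.67 in the control boar m_9600 and between -0.45 and -0.39 in the others. None of the DES and CNN1 probes was singled out in this way.

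The diet difference was not the same on both slides at 2 of 62 DES, CNN1 and contractile probes (unadjusted limma P-value under 0.05 for the interaction), which is 3.23%, while 738 of the 36982 present probes had one. At PTGS2 A_72_P302784, which encodes the inducible prostaglandin synthase, the difference was -0.33 on slide 1 and 0.45 on slide 2, 0.78 higher on slide 2 (limma, adjusted P = 1.0). This spot was well above background in 2 boars of each diet. At MYOCD A_72_P088171, a probe of myocardin, the coactivator of smooth muscle genes, it was 0.66 on slide 1 and -0.18 on slide 2, a change of -0.84 (limma, adjusted P = 1.0).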

How the results depend on the processing

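The diet differences of A_72_P177466 and A_72_P209552 kept their direction under all 20 alternatives, and 0 DES or CNN1 probes reached an adjusted P-value under 0.05 in any of them. The count of DES and CNN1 probes with an unadjusted P-value under 0.05 was 0 as reported, 1 with array weights, and 0 to 1 when single boars were dropped, namely 1 without boar m_9600 (CNN1, 0.43) and 1 without boar m_9502 (A_72_P177466, 0.54). CNN1 turned to -0.073 with slide 1 alone. The dim DES probe ranged from -0.20 to 0.0069 with boars left out, above 0 only without boar m_9600.

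The count of contractile probes was 3 as reported, 13 with array weights, 8 with slide 1 alone, and 2 to 12 with boars left out (7 without boar m_9600 and 12 without boar m_9502). The share of all present probes moved likewise, from 1.86% to 15.8% with array weights, 6.44% with slide 1 alone, 3.28% without m_9600 and 16.6% without m_9502. The count of contractile probes was 0 without the probes named only by the list of differing transcripts, an alternative chosen after seeing the data. The slide count of 1 fell to 0 with gMedianSignal scaled to the 75th percentile, with normexp and with presence on all arrays, and was 0 to 1 with boars left out (0 without boar m_9599, m_9600 or m_9527). The slide difference of A_72_P209552 was -0.056 with gProcessedSignal, -0.18 with array weights, and -0.22 to 0.41 with boars left out. That of A_72_P177466 was -0.34 to 0.0078 and that of CNN1 -0.049 to 0.36 with boars left out. The causes were not tested. The replicate numbers only follow the order of the samples and pair no boars. With the slide, and so the litter of brothers but not the litters on slide 2, as a block, the counts were 0 for DES and CNN1 and 3 for the contractile probes. The dim DES probe had no value where presence on all arrays was asked for. Fold changes of dim probes are limited by the background, which was not subtracted.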
